A study of Mus musculus with 2 samples.

Results

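NK cells, group 2 innate lymphoid cells (ILC2) and gamma-delta (γδ) T cells were examined in 2 single-cell RNA sequencing libraries of live CD45+ cells sorted from infarcted neonatal mouse hearts. They made up 155 of the 6149 barcodes kept, with 20 NK cells, 43 ILC2 and 93 γδ T cells, and 1 cell met both the NK and the ILC2 rule. One library held cells of wild-type (WT) hearts and the other cells of hearts of global Lyve1 knockout mice (Lyve1-/-, Lyve1 KO). In both genotypes myocardial infarction (MI) was induced at postnatal day 2 (P2) and 5 hearts per genotype were pooled 7 days later, at 9 days of age, so that no group was uninjured. Cells negative for the dead-cell dye 7-AAD and positive for CD45, the surface antigen of all leukocytes, were captured with a droplet kit that reads the 5′ end of transcripts. Because the knockout was global, the model does not separate lymphatic endothelium, where LYVE-1 binds hyaluronan, from macrophages, which also carry it. The deposited counts are unique molecular identifiers (UMIs), which number captured transcript molecules. The WT library held 67968938 UMIs over 5713 barcodes and the Lyve1 KO library 61555917 UMIs over 5285 barcodes. With 1 library per genotype and no assignment of cells to hearts used here, there was no replicate and no test between genotypes, no p-value is given, and all intervals are 95% intervals for counting error only.

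NK cells kill stressed or infected cells with granzymes and perforin and secrete interferon-γ, chiefly when the balance of their activating and inhibitory receptors tips. ILC2 carry no antigen receptor. They respond to the alarmin IL-33 through its receptor ST2 (Il1rl1), depend on the transcription factor GATA3, and release IL-5, IL-13 and amphiregulin, which act on eosinophils, macrophages and tissue repair. γδ T cells carry a receptor built from a γ and a δ chain. Those that leave the fetal thymus with the Vγ6 and Vδ1 segments settle in tissues and produce IL-17A and carry the receptors for IL-23 and IL-1, whereas CD27+ γδ T cells circulate and lean toward interferon-γ and cytotoxicity.

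The members were chosen by measured UMIs, so the values of the genes in the rule are a description and not a result. All had at least 1000 detected genes, at most 10% mitochondrial UMIs, fewer than 2 UMIs of Csf1r, fewer than 3 of Cd79a and fewer than 2 of Rag1, Dntt and Arpp21 together, limits that set aside macrophages, B cells and thymocyte-like cells. NK cells had at least 1 UMI of Ncr1 and 3 of Nkg7, and ILC2 at least 2 UMIs of Gata3 and 2 of Il1rl1, Il2ra and Areg together, both with fewer than 3 UMIs of Cd3d, Cd3e and Cd3g together (CD3). γδ T cells had at least 2 UMIs of Trdc, the constant segment of the δ chain (chr14:54142851-54148868, GRCm38, plus strand), and at least 3 of CD3. The closest limit was that on Trdc, where 3 WT and 9 Lyve1 KO cells sat at exactly 2 UMIs and a further 12 and 15 had exactly 1 UMI and stayed outside. On Gata3, 1 cell per library sat at exactly 2 UMIs, and 2 WT cells and 1 Lyve1 KO cell had exactly 1 and stayed outside. For Nkg7 1 WT cell sat at exactly 3 UMIs and no cell had exactly 2, and 3 WT and 5 Lyve1 KO cells met all other NK limits with no Ncr1 UMI.

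The targeted gene, Lyve1 (chr7:110850607-110863239, minus strand), was read first as a check of the labels. In cells with at least 2 Csf1r UMIs, the macrophage lineage, Lyve1 stood at 348 CPM, its UMIs per 1e+06 UMIs of the same cells, in WT and at 15.4 CPM in Lyve1 KO. The libraries thus followed their labels in the level of the gene, although 17.7% of the Lyve1 KO cells of that class still held a Lyve1 UMI, against 26.6% in WT. Whether the 5′ tag lies within the removed part of the gene is not given in the sources used here, so the residual UMIs check nothing about the protein.

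In ILC2 and γδ T cells the order was the opposite, with more Lyve1 UMIs in the knockout library. Among ILC2, 1 of 25 WT cells (4%, 0.101% to 20.4%) and 8 of 18 Lyve1 KO cells (44.4%, 21.5% to 69.2%) held a Lyve1 UMI, 29 UMIs in all in Lyve1 KO with at most 7 in 1 cell. Among γδ T cells the share was 0 of 35 WT cells (0% to 10.0%). In Lyve1 KO it was 11 of 58 cells (19.0%, 9.87% to 31.4%). Among NK cells the shares were 1 of 13 WT and 1 of 7 Lyve1 KO cells. B cells, which should lack the transcript, held a Lyve1 UMI in 0.595% of WT cells and in 8.82% (6.31% to 11.9%) of Lyve1 KO cells, at median depths of 12565 and 14368 UMIs, against 15839 and 20197.5 UMIs in ILC2. The share also went from 2.21% to 10.4% in other CD3+ T cells and from 2.46% to 20.5% in thymocyte-like cells. Depth was then made equal by thinning cells to 6600 UMIs and leaving out those with fewer. This left out 4 WT and 1 Lyve1 KO ILC2, 3 and 4 γδ T cells, and 41 and 28 B cells. At that depth 3 of 17 ILC2 (17.6%, 3.80% to 43.4%), 4 of 54 γδ T cells (7.41%, 2.06% to 17.9%) and 4.22% of B cells (2.48% to 6.67%) of the Lyve1 KO library held a Lyve1 UMI. For γδ T cells the thinned share could not be told from that of B cells, and for ILC2 the interval from 17 cells overlapped it. A larger ILC2 set, described with the CD3 limit further on, gave 14 of 53 thinned Lyve1 KO cells (26.4%, 15.3% to 40.3%) and 0 of 49 WT cells. That interval lay above the one of B cells.

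**Figure D1:**
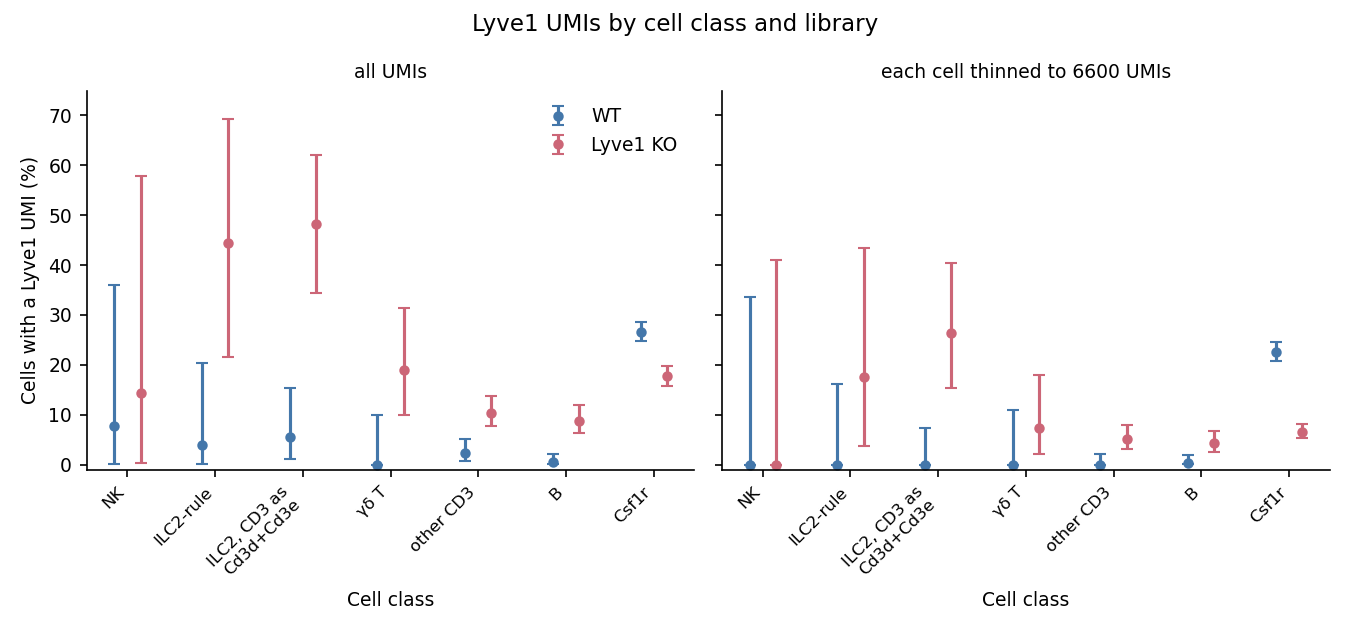
Share of cells with at least 1 Lyve1 UMI (percent, y axis) in each cell class (x axis) and library, with all UMIs and thinned to 6600 UMIs. Cells with fewer UMIs were left out of the thinned shares. Points are shares and bars exact 95% binomial intervals for counting error. In the Lyve1 KO library ILC2 reached 44.4% with all UMIs and 17.6% when thinned, against 8.82% and 4.22% of B cells, and macrophage-lineage cells had the larger share in WT.

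The 3 groups carried markers that their names call for and that the rule had not used. NK cells had Tbx21, which encodes the lineage factor T-bet, in 13 of 13 WT and 6 of 7 Lyve1 KO cells. Eomes, a factor of NK cells that most type 1 innate lymphoid cells (ILC1) lack, was found in 6 and 4 cells. ILC1 markers were present too. In a larger NK set of 19 WT and 16 Lyve1 KO cells, described with the CD3 limit further on, Itga1 was found in 11 and 11 cells. There Tmem176b was found in 9 and 2, Tnfsf10 in 7 and 6, Cxcr6 in 6 and 3, Tmem176a in 6 and 3, and Il7r and Zfp683 in 3 and 3 each. Eomes was found in 11 and 12 of these cells. The rule thus did not separate NK cells from ILC1. ILC2 held Rora, a factor needed for their development, at 1596 CPM in WT and 1519.7 CPM in Lyve1 KO, and the IL-7 receptor gene Il7r in 22 of 25 and 18 of 18 cells. Other ILC2 markers were scarce, with 14 and 8 UMIs of the IL-25 receptor gene Il17rb and none of Ptgdr2, the prostaglandin D2 receptor. γδ T cells held Tcrg-C1, a constant segment of the γ chain, in 34 of 35 and 45 of 58 cells.

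The genes that stood out most in each group, relative to the other 2 groups and to the other CD3+ T cells, came from the same cells as the rule and are given as a description. The other CD3+ T cells included most of 29 WT and 36 Lyve1 KO cells that resembled ILC2 but held Cd3g, described further on. The ILC2 genes were thus ranked in part against cells like their own. For NK cells they were Klrb1b (1336 CPM in WT and 999 in Lyve1 KO), Ncr1 (730 and 659), Klri2 (219 and 223), Irf8 (766 and 297), Tyrobp (2117 and 1604), Klrk1 (730 and 1222), Car2 (489 and 1137), Klrb1f (255 and 181), Fcer1g (1438 and 1052) and Serpinb9 (774 and 627). Tyrobp and Fcer1g encode signalling adaptors of NK receptors, Klrk1 the activating receptor NKG2D, and Serpinb9 a granzyme inhibitor. For ILC2 they were Cxcl10 (852 and 172 CPM), Areg (6541 and 5716), Ccdc184 (111 and 74.5), Hs3st1 (693 and 875), Pde7b (474 and 326), Thsd4 (144 and 165), Kcnd2 (78.2 and 209), Prnp (78.2 and 191), Igsf5 (259.7 and 216) and Kit (217 and 189). Areg, amphiregulin, is a ligand of the epidermal growth factor receptor, and Kit is the receptor of stem cell factor. Among the leading genes of γδ T cells were Trdc, the V segments Trdv4, Tcrg-V6 and Trgv2, Blk, Il1r1, Il23r, Il17a and Cd163l1, the last 5 part of the IL-17-type γδ programme. Areg was therefore both a rule gene and the most abundant leading gene of ILC2. Other CD3+ T cells held it at 1175 and 702 CPM and B cells at 2.74 and 17.1 CPM. The former is not a level of T cells alone, because that class held the ILC2-type cells set aside through Cd3g. ILC2 held 2594 and 2456 Areg UMIs under the rule, and 6508 and 7290 with CD3 counted as Cd3d+Cd3e.

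**Figure D2:**
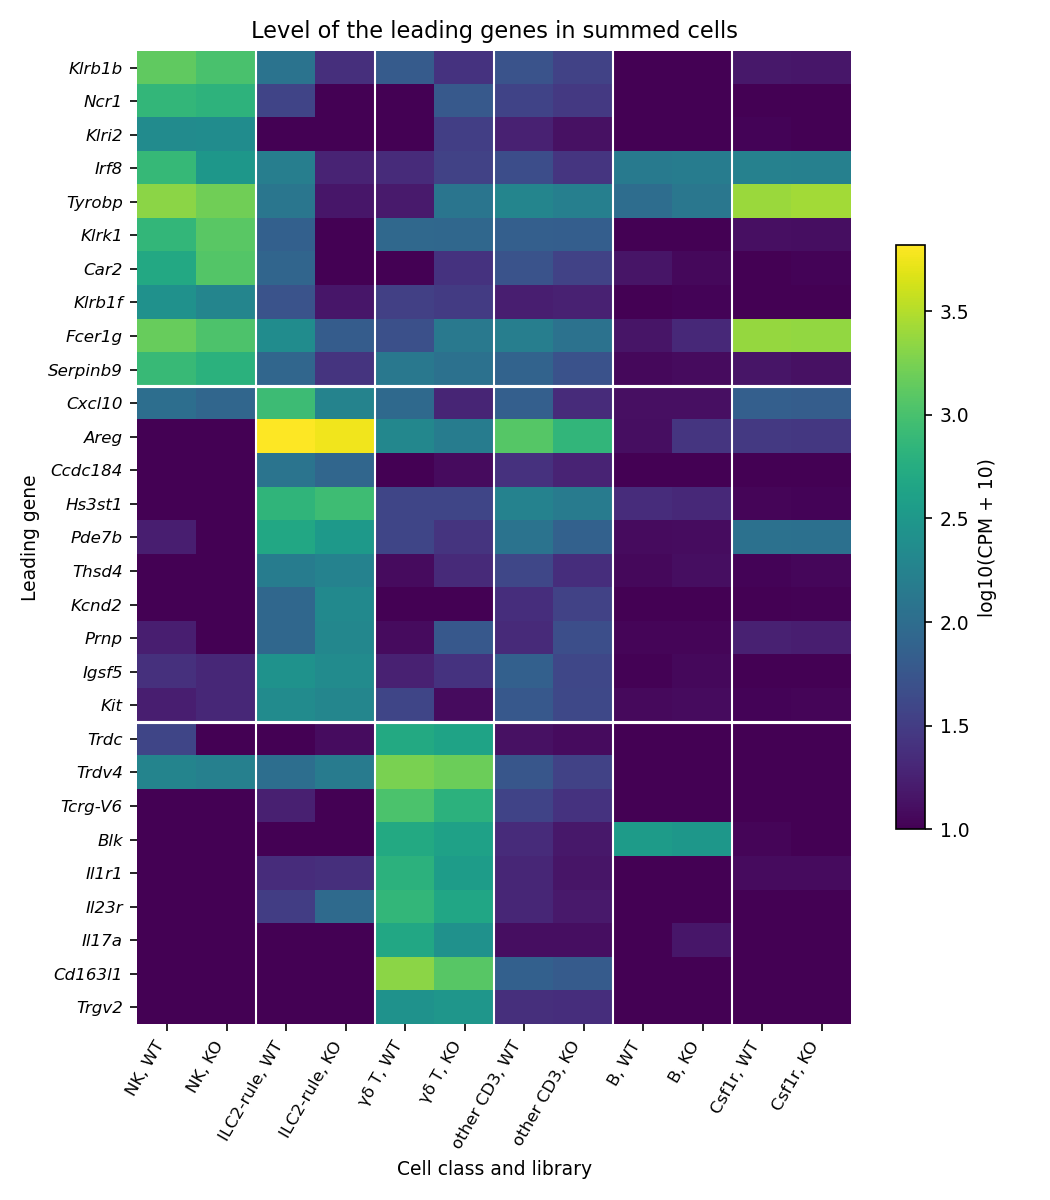
Level of the leading genes of each group (rows; log10 of CPM + 10, colour) in NK cells, ILC2, γδ T cells, other CD3+ T cells, B cells and cells with Csf1r, WT and Lyve1 KO side by side. Each block of genes was high in its own group in both libraries, and Areg was the brightest gene of the ILC2 block at 6541 and 5716 CPM. The other CD3+ T cells include cells that resemble ILC2 but hold Cd3g.

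The share of γδ T cells among all kept barcodes was about 2-fold higher in Lyve1 KO, whereas the shares of NK cells and ILC2 among all barcodes could not be separated. γδ T cells were 35 of 3380 WT barcodes (1.04%, 0.722% to 1.44%) and 58 of 2769 Lyve1 KO barcodes (2.09%, 1.59% to 2.70%), a difference of 1.06 percentage points (0.441 to 1.73). NK cells were 13 in WT (0.385%, 0.205% to 0.657%) and 7 in Lyve1 KO (0.253%, 0.102% to 0.520%), a difference of -0.132 points (-0.434 to 0.180). ILC2 were 25 (0.740%, 0.479% to 1.09%) and 18 (0.650%, 0.386% to 1.03%), a difference of -0.0896 points (-0.513 to 0.355). Among the 298 WT and 496 Lyve1 KO lymphoid cells of the rule (the 3 groups and other CD3+ T cells), NK cells differed by -2.95 points (-6.00 to -0.629) and ILC2 by -4.76 points (-8.69 to -1.43), and γδ T cells made up 11.7% in both.

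Other CD3+ T cells and B cells also took a larger share in Lyve1 KO. Other CD3+ T cells went from 6.69% to 14.9% and B cells from 9.94% to 15.6% of the barcodes, while cells with Csf1r went from 61.0% to 48.8% and thymocyte-like cells from 3.61% to 2.82%. As a share of all CD3+ cells, γδ T cells were 13.4% of 261 in WT and 12.3% of 471 in Lyve1 KO, a difference of -1.10 points (-6.47 to 3.78). Shares of a sorted pool add up to a whole, so more cells of a type and fewer of the rest cannot be told apart. The sort for CD45 sets which cells enter, and the shares cannot be read as cell numbers per heart.

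**Figure D3:**
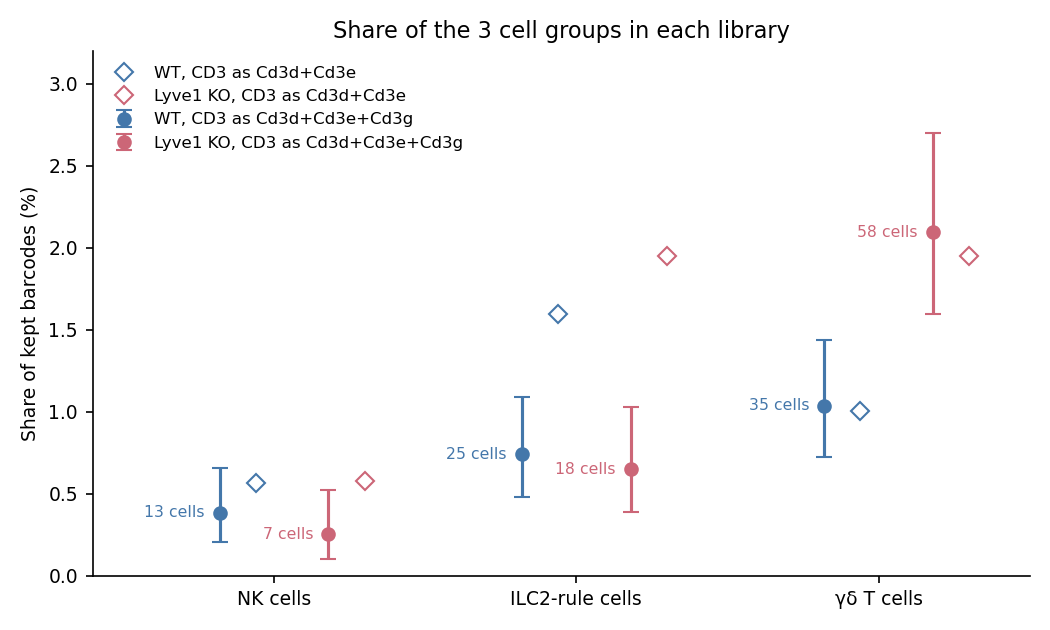
Share of NK cells, ILC2 and γδ T cells among all kept barcodes (percent, y axis) in WT and Lyve1 KO; filled points follow the rule with exact 95% binomial intervals for counting error and the number of cells, and open diamonds count CD3 as Cd3d+Cd3e. γδ T cells stood at 1.04% and 2.09%, and ILC2 moved from 0.740% and 0.650% under the rule to 1.60% and 1.95% under the other count of CD3.

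One limit of the rule removed many cells that resembled ILC2. Among cells with the ILC2 genes but 3 or more CD3 UMIs, 29 in WT and 36 in Lyve1 KO reached that number through Cd3g alone or nearly so, since Cd3g made up 98.2% and 99.1% of their CD3 UMIs and 26 and 32 of them had no UMI of Cd3d or Cd3e. Of these, 28 and 36 had at least 2 UMIs of Il1rl1, and none had a UMI of Foxp3, the factor of regulatory T cells. Most of these cells count among the other CD3+ T cells of this report, whose values therefore include them. The 3 genes lie next to each other on chromosome 9 (Cd3g 44969572 to 44980431, Cd3d 44981786 to 44987339, Cd3e 44998740 to 45009627). Cells with the ILC2 genes and 3 or more UMIs of Cd3d and Cd3e numbered 21 and 32, with Foxp3 in 11 and 19 of them. When CD3 was counted as Cd3d+Cd3e, a choice made after seeing the data, ILC2 numbered 54 in WT (1.60%) and 54 in Lyve1 KO (1.95%), a difference of 0.353 points (-0.308 to 1.05), and NK cells 19 (0.562%) and 16 (0.578%), a difference of 0.0157 points (-0.369 to 0.427). The sign of both differences turned, and both intervals still held 0. The γδ T cells were little affected, with 34 and 54 cells (1.01% and 1.95%, a difference of 0.944 points, 0.343 to 1.60). Values of this larger set are therefore given beside the main NK and ILC2 results. Of the genes of the lists and the extremes that were at least 2-fold apart under the rule, 10 of 29 in NK cells and 12 of 36 in ILC2 kept that call in the larger set, while 4 and 3 changed sign and the rest fell short of the limit or of the minimum for comparison.

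Levels were compared between genotypes as CPM of the UMIs summed over the cells of a group, as the log2 ratio of CPM + 10, for genes with at least 50 UMIs over both libraries and a UMI in at least 20% of the cells of 1 library. Genes whose ratio reached 1 on the log2 scale in either direction are called at least 2-fold higher or lower. In NK cells this held for 98 of 753 genes (13%), 30 higher (3.98%) and 68 lower (9.03%) in Lyve1 KO. In ILC2 it held for 126 of 2497 genes (5.05%), 50 higher (2%) and 76 lower (3.04%), and in γδ T cells for 116 of 4450 genes (2.61%), 60 higher (1.35%) and 56 lower (1.26%). The share of genes past the limit was thus largest where the fewest UMIs were summed, 137011 and 94132 in NK cells, 396592 and 429683 in ILC2, and 491959 and 951223 in γδ T cells. In the larger sets with CD3 as Cd3d+Cd3e it held for 143 of 1960 genes in NK cells (7.3%, 74 higher, 3.78%, and 69 lower, 3.52%) and for 95 of 5488 genes in ILC2 (1.73%, 32 higher, 0.583%, and 63 lower, 1.15%). None of the 688 genes measured in all 3 groups was at least 2-fold higher in each (0%) or lower in each (0%).

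Under the rule, NK cells of the Lyve1 KO library held lower levels of the effector genes Gzma, Prf1 and Ifng and of the inhibitor gene Serpinb6b. None of the effector genes kept its call when CD3 was counted as Cd3d+Cd3e. Of the 8 measured genes of the granule and death ligand list, 4 were at least 2-fold lower in Lyve1 KO and none higher. The median log2 ratio was -1.004 against -0.07 for all genes measured in NK cells, of which 9.03% were lower. Granzyme A (Gzma), a serine protease of the granules, had 583 UMIs in 9 of 13 WT cells and 145 UMIs in 3 of 7 Lyve1 KO cells. Per cell it ranged from 0 to 117 UMIs with a median of 38 in WT, and from 0 to 87 with a median of 0 in Lyve1 KO, so that the ranges overlapped. In level that was 4255 CPM (3917 to 4615) and 1540.4 CPM (1299.9 to 1813), a log2 ratio of -1.46. The pore-forming protein perforin (Prf1) had 68 and 11 UMIs, 496 and 117 CPM, a log2 ratio of -1.997. Interferon-γ (Ifng) stood at 628 and 255 CPM (-1.27, and -0.85 without the cell with the most UMIs), and Serpinb6b, a granule protease inhibitor, at 912 and 372 CPM (-1.27). With CD3 counted as Cd3d+Cd3e, the log2 ratios were 0.15 for Gzma, -0.73 for Prf1, -0.75 for Ifng and -1.56 for Serpinb6b, and 1 of 10 list genes was at least 2-fold lower, in a set where 3.52% of all measured genes were. Of the 4, Serpinb6b alone kept its call under both counts of CD3.

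Among genes that mark NK cells as such, none of 14 measured genes of the identity list passed the 2-fold limit, beside 13% of all genes measured in NK cells, and the median log2 ratio was -0.32. Such genes include Ncr1 and Nkg7, by which the cells were chosen, so the count is in part a description and not a result. The most abundant was the chemokine Ccl5, at 6620 and 3421 CPM (-0.95). None of 8 measured Ly49 and NKG2 receptor genes passed the limit, with a median of -0.10 and Klrk1 at 0.74. In the larger set 2 of 12 were higher, Klrc1 (1.20) and Klra7 (1.56), with a median of 0.14, where 3.78% of all genes were higher. Few genes of early and late NK cells were measured, and of all genes measured in NK cells 3.98% were higher and 9.03% lower. Of 4 measured genes of early NK cells 3 were at least 2-fold higher in Lyve1 KO, namely Emb (547 and 1615 CPM, 1.54), Cd7 (263 and 967 CPM, 1.84, and 0.99 without the cell with the most UMIs) and Ctla2a (226 and 637 CPM, 1.45), and the chemokine Xcl1 was lower (1431 and 138 CPM, -3.28). Of 3 genes of late NK cells, Gzma and Ly6c2 were lower, Ly6c2 with 350.3 and 42.5 CPM (-2.78). Under the other count of CD3 the log2 ratios were 0.35 for Emb, -0.017 for Cd7, 0.02 for Ctla2a, -0.52 for Xcl1 and -4.13 for Ly6c2, so that only the last kept its call among these 5. There none of 9 measured genes of early NK cells passed the limit, with a median of 0.02, and 1 of 8 of late NK cells, with a median of 0.0027. The ILC1 and tissue residency list had 1 measured gene, Rgs1, a regulator of G-protein signalling, at 657 and 63.7 CPM (-3.18, and -0.64 in the larger set).

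Immediate early genes, which are induced within minutes of activation or of tissue handling, were also lower under the rule, in 6 of 15 measured genes with a median of -0.94. The 6 were Zfp36 (-2.08), Jund (-1.56), Nr4a2 (-1.45), Nfkbia (-1.37), Dusp2 (-1.08) and Nr4a1 (-1.03). Of all genes measured in NK cells 9.03% were lower. In the larger set 3 of 18 were lower and 2 higher, with a median of -0.52, where 3.52% of all genes were lower and 3.78% higher. Zfp36 (-1.15) and Nfkbia (-1.05) kept their call there, Jund (-0.85), Nr4a2 (-0.54), Dusp2 (-0.85) and Nr4a1 (-0.50) lost it, and Atf3 (2.10) and Fos (1.19) were higher. One WT cell held 145 of the 285 WT UMIs of Jund, 145 of 245 of Nr4a1 and 74 of 115 of Zfp36. Dusp2 had 94 and 30 UMIs, and 63 of the 94 sat in 1 WT cell, so that its call rested on that cell. Klf2, a factor of recirculation, was the 1 of 9 measured transcription factors past the limit (1182 and 266 CPM, -2.11), with 103 of its 162 WT UMIs in 1 cell. Under the other count of CD3, Klf2 stood at 959 CPM in both libraries, and 12 of 18 measured genes of DNA replication and mitosis were at least 2-fold higher in Lyve1 KO, with a median of 1.26 against -0.02 for all genes, of which 3.78% were higher. Under the rule itself 4 such genes were measured and 1, Top2a, was lower (-1.11), which turned to 1.03 in the larger set.

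The extremes in NK cells rested on single cells more often than not. The highest log2 ratios were those of Gpr183 (2.44, from 12 and 49 UMIs), Fgl2 (2.10), Slc16a10 (1.97, with 38 of 43 Lyve1 KO UMIs in 1 cell), Lars2 (1.95) and Ccl4 (1.92, with all 39 UMIs in 1 cell). Without the cell with the most UMIs, Slc16a10 and Ccl4 were lower in Lyve1 KO. Gpr183 is a receptor for oxysterols that guides lymphocytes, and Ccl4 a chemokine. The lowest were those of the histone genes Hist1h2bc and Hist1h1b, the chemokines Ccl3 and Xcl1, and the stress gene Gadd45b. Hist1h2bc had 50 UMIs in WT, 43 of them in 1 cell, and 0 in Lyve1 KO, at least 11.5-fold lower against a floor of 3 UMIs per library. The WT to Lyve1 KO ratio of CPM was 48.1 for Hist1h1b (8.35 to 1926, from 70 UMIs and 1), 33.3 for Ccl3 (8.98 to 279, from 97 and 2) and 24.3 for Gadd45b (8.08 to 119.6, from 106 and 3). Of the WT UMIs of these genes 58, 80 and 60 sat in 1 cell. In the larger set Gadd45b stayed lower (-2.17), Hist1h2bc (-0.64), Ccl3 (-0.56) and Xcl1 (-0.52) missed the limit, and Hist1h1b was higher (1.95). Of the highest 5, Slc16a10 alone missed the limit there (0.56). The cell that met both the NK and the ILC2 rule held 123 of the 196 WT UMIs of Xcl1.

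In ILC2 the summed level of the type 2 cytokine gene Il13 was higher in Lyve1 KO, with 799 and 250 of its 1288 UMIs in 1 cell each. Of 4 measured interferon-stimulated genes 3 were lower, where 3.04% of all genes were. In the larger set 4 of 8 were lower, where 1.15% of all genes were. The genes of the rule had been used to choose the cells, so their levels are a description and not a result. Gata3 (chr2:9857078-9890034, minus strand) had 2 to 31 UMIs per WT cell with a median of 11, and 2 to 65 per Lyve1 KO cell with a median of 18, which gave 865 and 854 CPM. Il1rl1, ST2, stood at 827 and 994 CPM with a UMI in 22 of 25 and 17 of 18 cells, and Il2ra, the IL-2 receptor α chain, at 492 and 957 CPM (0.95). Areg ranged up to 867 UMIs in a WT cell and 604 in a Lyve1 KO cell, with medians of 12 and 33.5, and its log2 ratio was -0.19, or 0.32 without the WT cell of 867 UMIs. UMIs of Il1rl1, Il2ra and Areg together in the same cell were found in 16 WT and 15 Lyve1 KO cells.

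Of 29 genes of the ILC2 list 24 were measured, of which 5 were at least 2-fold higher and 1 lower in Lyve1 KO. The median log2 ratio was 0.25 against 0.01 for all genes measured in ILC2, of which 2% were higher and 3.04% lower. The list holds genes of the rule, such as Areg, whose values the selection had used. In the larger set 3 of 28 measured genes were higher and 0 lower, with a median of 0.095, where 0.583% of all genes were higher and 1.15% lower. Il13 (chr11:53631324-53634702, minus strand), which drives alternative activation of macrophages, had 150 UMIs in 5 of 25 WT cells and 1288 UMIs in 6 of 18 Lyve1 KO cells. In level that was 378 CPM (320.1 to 444) and 2998 CPM (2836 to 3166), a 7.93-fold ratio (6.69 to 9.45) and a log2 ratio of 2.95. The shares of cells with a UMI were 20% and 33.3%, closer together than the levels. One Lyve1 KO cell held 799 UMIs and 1 WT cell 97, and without the cell with the most UMIs in the set the log2 ratio was 1.76. A further Lyve1 KO cell held 250 UMIs and stayed in that value. The median per cell was 0 UMIs in both libraries. With CD3 counted as Cd3d+Cd3e, Il13 stood at 595 and 2760 CPM, in 35.2% and 51.9% of 54 cells each, a log2 ratio of 2.19.

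The neighbouring cytokine genes did not hold in the same way. Il5 (chr11:53720794-53725106, plus strand), the growth factor of eosinophils, had 281 UMIs in 15 of 25 WT cells and 615 in 14 of 18 Lyve1 KO cells, 709 and 1431 CPM, a log2 ratio of 1.004. Without the cell with the most UMIs it was 0.26, and in the larger set -0.0050, at 1476 and 1471 CPM. Il4 (chr11:53602982-53618669, minus strand) had 11 and 101 UMIs (2.70, and 1.35 in the larger set), but 93 of the 101 sat in 1 cell and without it the log2 ratio was -0.33. Csf2, the gene of GM-CSF, had 1137 and 2155 CPM (0.92) and -0.21 in the larger set. Of the 4 cytokine genes, Il13 alone stayed at least 2-fold higher in both sets and, under the rule, without the top cell. Its ratio without both leading Lyve1 KO cells, or without a top cell in the larger set, was not tested.

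The other genes of the list gave smaller ratios than Il13. The leukotriene receptor gene Cysltr1 stood at 78.2 and 249 CPM (1.55, and 0.65 in the larger set), and the transcription factor gene Hlf at 111 and 314 CPM (1.42 and 0.40). Ccr8, a chemokine receptor, had log2 ratios of 0.88 and 0.87 in the 2 sets. Hes1, a target of Notch signalling, was at least 2-fold lower (479 and 198 CPM, -1.23, and -0.50 in the larger set). Calca, the gene of calcitonin and CGRP, stood at 552 and 970.5 CPM (0.80), and Klrg1 was found in 14 of 25 and 5 of 18 cells (-0.11, and 0.78 in the larger set).

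Interferon-stimulated genes were lower in Lyve1 KO in 3 of the 4 that were measured, beside 3.04% of all genes measured in ILC2, with a median log2 ratio of -2.48. Isg15 (chr4:156199424-156200818, minus strand), a ubiquitin-like modifier, had 339 UMIs in 18 of 25 WT cells, with at most 72 in 1 cell, and 25 UMIs in 9 of 18 Lyve1 KO cells, with at most 9. In level that was 855 CPM (766 to 951) and 58.2 CPM (37.7 to 85.9), a 14.7-fold ratio (9.78 to 23.0) and a log2 ratio of -3.66. At equal depth 14 of 21 WT and 4 of 17 Lyve1 KO cells held a UMI. Irf7, a transcription factor of the interferon response, stood at 131 and 14.0 CPM (-2.56), and the GTPase gene Gbp2 at 166 and 23.3 CPM (-2.41). Bst2, which tethers virions, missed the limit (184 and 90.8 CPM, -0.95). The summed level of the list was 2060 and 314 CPM.

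In the larger ILC2 set the ratios shrank but kept their sign, with Isg15 at -2.28, Irf7 at -1.28 and Gbp2 at -1.23, and with 4 of 8 measured genes at least 2-fold lower, beside 1.15% of all measured genes, and a median of -0.96. Isg15 was also lower in the other classes, with log2 ratios of -1.70 in NK cells, -1.17 in γδ T cells, -0.49 in other CD3+ T cells, -0.19 in B cells and -0.12 in cells with Csf1r. The largest of these was that of ILC2, and the differences between classes were not tested. Cxcl10, an interferon-induced chemokine and the leading ILC2 gene by ratio to the other groups, stood at 852 and 172 CPM (-2.24), with 205 of its 338 WT UMIs in 1 of 6 positive cells and a UMI in 7 of 18 Lyve1 KO cells. As the summed RNA of a set of cells, these values do not tell fewer responding cells from less RNA per cell.

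**Figure D4:**
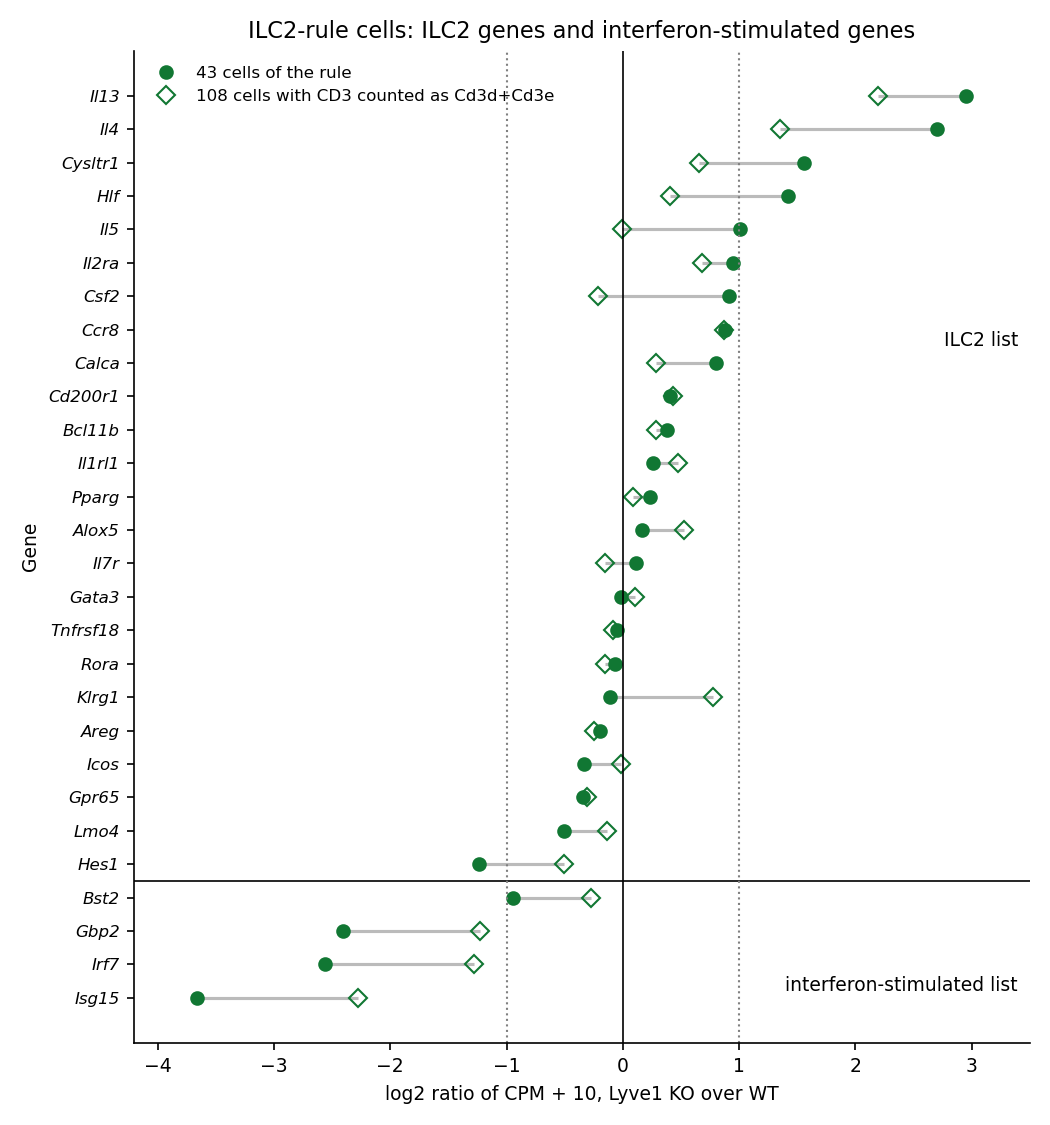
Log2 ratio of CPM + 10, Lyve1 KO over WT (x axis), of 24 measured ILC2 genes and 4 interferon-stimulated genes (y axis) in the 43 ILC2 of the rule (filled) and the 108 cells with CD3 counted as Cd3d+Cd3e (open), with dotted lines at the 2-fold limits. Il13 lay to the right of the limit in both sets (2.95 and 2.19), and Isg15, Irf7 and Gbp2 to the left of it in both.

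Among the other lists, genes of DNA replication and mitosis were at least 2-fold higher in 6 of 12 measured genes in ILC2, with a median of 1.09. Of all genes measured in ILC2 2% were higher and 3.04% lower, shares that stand beside each count of the rule set given here. The proliferation marker Mki67 had 30 UMIs in 4 of 25 WT cells and 165 in 9 of 18 Lyve1 KO cells (2.20, and 1.47 without the cell with the most UMIs), and the helicase subunit genes Mcm2, Mcm3 and Mcm4, the topoisomerase gene Top2a and the nucleotide hydrolase gene Dut had log2 ratios from 1.28 to 1.53. In the larger set none of 16 genes passed the limit, with a median of 0.26. None of 16 cytokine receptor genes passed it in ILC2, a list that holds the rule gene Il1rl1. Of 13 cytokine and growth factor genes 3 were higher, the type 2 cytokine genes above, and 2 lower, Tnf (-1.16) and Lif (-1.20). Of 11 chemokine and chemotactic receptor genes Ccl1 was higher (2.77) and Cxcl10 and Cxcr4 (-1.14) were lower. Among 15 transcription factors, Hlf was higher and Ikzf2 (-1.59) and Maf (-1.51) lower, and among 18 immediate early genes Atf3 was higher (1.56) and Fos (-1.05), Dusp2 (-1.59) and Hspa1a (-1.74) lower. Of these genes, Cxcl10 (-2.58) and Cxcr4 (-1.01) kept their call in the larger set. Tnf (-0.22), Lif (-0.33), Ccl1 (0.01), Hlf (0.40), Ikzf2 (-0.94), Maf (-0.64), Atf3 (0.58), Dusp2 (-0.26) and Fos (0.01) did not, and Hspa1a was not measured in enough cells there.

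At the extremes, Ptgs2, cyclooxygenase 2, had 13 UMIs in 1 WT cell and 287 in 5 Lyve1 KO cells (3.99, and 0.74 in the larger set). Car7, a carbonic anhydrase, had 0 UMIs in WT and 57 in 9 Lyve1 KO cells, at least 17.5-fold higher against the floor of 3 UMIs, with a log2 ratio of 1.47 in the larger set. Neb, nebulin, had 3 and 53 UMIs, a 16.3-fold ratio (5.29 to 81.6), and Ccl1 5 and 62 UMIs. In the larger set both missed the limit, at 0.70 and 0.01. The lowest besides Isg15 were Ms4a4b (67 and 3 UMIs, a 24.2-fold ratio, 7.93 to 120.3), Trmt61b (-3.23), Tgtp1, an interferon-inducible GTPase (-3.14), and Ccrl2 (-3.10, and -0.41 in the larger set).

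The γδ T cells mostly carried transcripts of the IL-17-type receptor segments. The segments whose transcripts set the cells apart are given here by the last 60 bases of the annotated V-segment transcript (GENCODE vM21, GRCm38, sense strand, 5′ to 3′). These stretches lie next to the junction and show how far the segments differ there. Capitals mark the letters TANTANTGT, the conserved tyrosine and cysteine codons before the junction, which 38 of 194 annotated T cell receptor V-segment transcripts (19.6%) hold in their last 60 bases.
Tcrg-V6 (chr13:19190356-19190929, plus strand): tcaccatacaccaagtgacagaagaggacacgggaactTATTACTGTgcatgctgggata
Trdv4 (chr14:54074905-54075515, plus strand): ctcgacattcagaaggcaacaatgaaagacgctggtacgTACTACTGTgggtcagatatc
Trgv2 (chr13:19336573-19337167, minus strand): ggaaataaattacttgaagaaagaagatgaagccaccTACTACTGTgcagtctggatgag
Tcrg-V1 (chr13:19339989-19340454, plus strand): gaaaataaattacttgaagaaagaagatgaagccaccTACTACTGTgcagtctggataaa
Tcrg-V4 (chr13:19184974-19185506, plus strand): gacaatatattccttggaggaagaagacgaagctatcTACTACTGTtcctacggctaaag
Tcrg-V6 encodes Vγ6 and Trdv4 Vδ1, the pair of fetal-derived IL-17 producers. Trgv2 and Tcrg-V1 were identical at 57 of these last 60 bases, while Tcrg-V6 matched Trgv2 at 33 of 59. The kit reads the 5′ end of transcripts, which was not compared, so how well UMIs separate these segments was not tested.

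Trdv4 was the most abundant segment, with 863 UMIs in 31 of 35 WT cells and 1448 in 34 of 58 Lyve1 KO cells, 1754 and 1522 CPM. Tcrg-V6 had 508 UMIs in 30 and 605 in 34 cells, 1033 and 636 CPM. Both segments were thus found in a smaller part of the Lyve1 KO cells. Trgv2 stood at 264 and 295 CPM (0.16) and Tcrg-V5 at 142 and 67.3 CPM (-0.98). Of 11 measured γδ chain genes 2 were at least 2-fold higher in Lyve1 KO and none lower, beside 1.35% of all genes measured in γδ T cells that were higher. The median was -0.20 against -0.04 for all genes. The 2 genes were Tcrg-V4 (30.5 and 82.0 CPM, 1.18) and Trdv2-2 (chr14:53960944-53961602), with 2 UMIs in 2 WT cells and 79 in 16 Lyve1 KO cells, a 20.4-fold ratio (5.47 to 172).

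To describe the mixture of cells, 8 markers of the IL-17 programme (Il17a, Il23r, Il1r1, Ccr6, Cd163l1, Sox13, Blk and Maf) were counted per cell. Cells with a UMI of at least 4 of them were 31 of 35 in WT (88.6%, 73.3% to 96.8%) and 39 of 58 in Lyve1 KO (67.2%, 53.7% to 79.0%), a difference of -21.3 points (-35.9 to -3.31). Few cells lay near this limit, since 5 or more markers were seen in 28 WT and 36 Lyve1 KO cells and at most 1 in 3 and 15. Of all kept barcodes, cells with at least 4 markers differed by 0.491 points (-0.0448 to 1.07) and the other γδ T cells, 4 in WT and 19 in Lyve1 KO, by 0.568 points (0.259 to 0.958). The interval of the share among γδ T cells held 0 with limits of 3 or 5 markers (-16.2 points, -30.5 to 1.38, and -17.9 points, -34.2 to 1.61). With a limit of 6 the difference was -28.9 points (-45.3 to -8.40), and at equal depth with a limit of 4 it was -19.0 points (-34.2 to -0.0326).

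The receptor segments followed the marker count, which had not used them. Tcrg-V6 was found in 29 of 31 WT and 33 of 39 Lyve1 KO cells with at least 4 markers, and in 1 of 4 and 1 of 19 of the other cells. Trdv4 was found in 30 of 31 and 32 of 39, and in 1 of 4 and 2 of 19. The other γδ T cells carried Trdv2-2 in 11 of 19 Lyve1 KO cells and in 0 of 4 WT cells, the costimulatory receptor gene Cd27 in 15 of 19 and 3 of 4, and Nkg7 in 9 of 19 and 3 of 4. Among cells with at least 4 markers Cd27 was found in 0 of 31 and 5 of 39. Among the other γδ T cells, the ILC2 genes Areg, Il13 and Il5 were each found in 1 cell per library. Their UMIs there were 47, 30 and 25 in WT and 95, 65 and 52 in Lyve1 KO. Transcripts of the αβ receptor were also present. Over all γδ T cells Trac, the constant segment of the α chain, stood at 26.4 and 64.1 CPM (1.03), the 1 of 9 measured CD3 and αβ receptor genes past the limit. It was found in 9 of 31 and 18 of 39 cells with at least 4 markers and in 1 of 4 and 7 of 19 of the others, of which 3 of 4 and 8 of 19 held Tcrg-C1. The part of these transcripts in the shares was not tested.

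**Figure D5:**
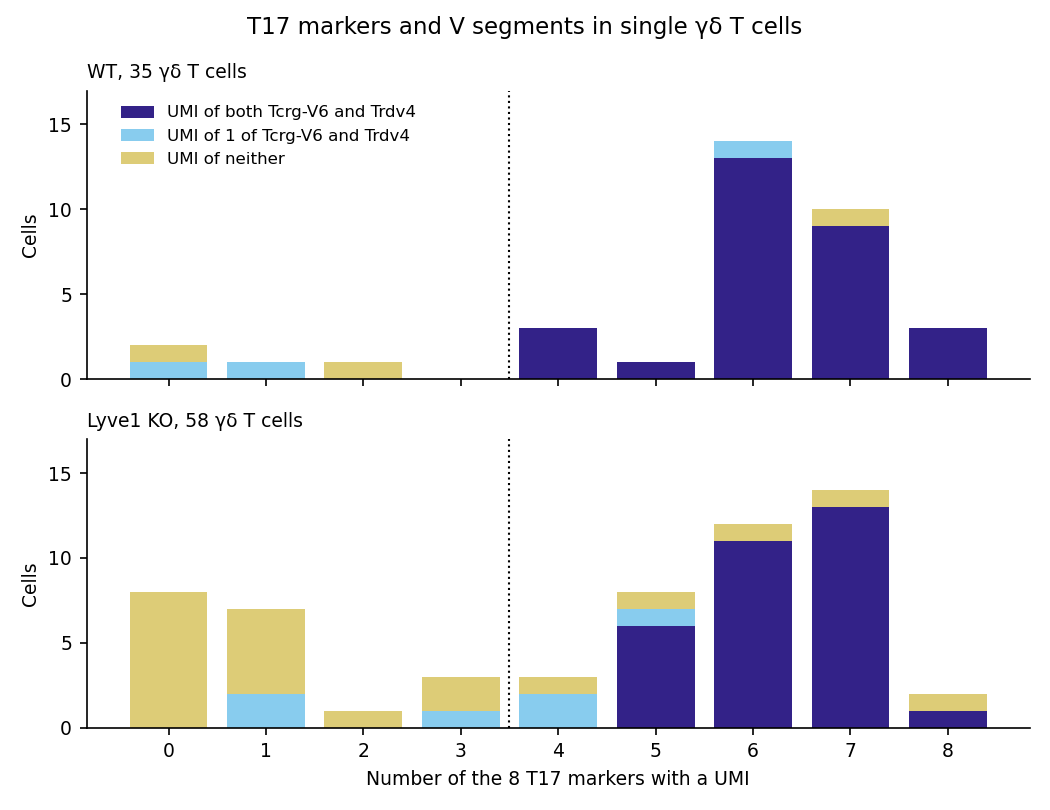
Number of γδ T cells (y axis) by how many of 8 IL-17 programme markers had a UMI (x axis), in WT and Lyve1 KO, coloured by whether Tcrg-V6 and Trdv4 were both, singly or not detected, with a dotted line between 3 and 4 markers. Most cells, 28 in WT and 36 in Lyve1 KO, held 5 or more markers, and of the cells with 3 or fewer, 2 of 4 in WT and 16 of 19 in Lyve1 KO had neither.

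Summed over all γδ T cells, IL-17-type genes were mostly lower in Lyve1 KO without reaching 2-fold. Of 21 measured genes of the IL-17-type list 1 was at least 2-fold lower, the potassium channel gene Kcnk1 (134 and 48.4 CPM, -1.30), and none higher, beside 1.26% of all genes lower and 1.35% higher. The median of the list was -0.63 and its summed level 12442 and 8561 CPM. Il17a (chr1:20730905-20734496, plus strand) had 238 UMIs in 14 of 35 WT cells and 244 in 16 of 58 Lyve1 KO cells, with at most 90 and 104 in 1 cell. In level that was 484 CPM (424 to 549) and 257 CPM (225 to 291), a log2 ratio of -0.89, short of the limit. It was -1.63 without the Lyve1 KO cell of 104 UMIs, a value in which the WT cell of 90 UMIs stayed. The IL-23 receptor gene Il23r stood at 718 and 456 CPM (-0.64), Il1r1 at 636 and 351 CPM (-0.84), Cd163l1, a scavenger receptor, at 2096 and 1209 CPM (-0.79), and Blk, a Src-family kinase, at 504 and 399 CPM (-0.33). Il17f was found in 4 of 35 and 6 of 58 cells. These sums mix the cells with at least 4 markers and the others in different proportions in the 2 libraries. Within the cells with at least 4 markers, which were chosen by genes of this list, its median was -0.46 and Il17a stood at 587 and 353 CPM (-0.72), beside a median of -0.04 for all genes. Within the other γδ T cells, chosen by the same genes, 6 of the 21 were higher and 0 lower, with a median of 0.46. There 14.5% of all genes were higher and 6.47% lower.

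Genes of the interferon-γ and cytotoxic type of γδ T cell were higher in Lyve1 KO in 2 of 7 measured genes, with a median of 0.88. Of all genes measured in γδ T cells 1.35% were higher and 1.26% lower. Within the cells with at least 4 IL-17 markers 2 of the 7 were higher and none lower, with a median of -0.21, where 1.82% of all genes were higher and 1.42% lower. These were Cd27, with 0 and 19 UMIs, and Nkg7, with 1 and 26 UMIs, 23 of the 26 in 1 Lyve1 KO cell. Within the others 3 were higher and none lower, with a median of 0.14, where 14.5% of all genes were higher and 6.47% lower. Nkg7, a granule membrane protein, had 35 UMIs in 4 of 35 WT cells and 271 in 12 of 58 Lyve1 KO cells, 71.1 and 285 CPM (1.86). The egress receptor S1pr1 stood at 46.7 and 116 CPM (1.15). Cd27, at 28.5 and 66.2 CPM with a UMI in 3 and 20 cells, came to 0.99 and Tbx21 to 0.88. The chemokine and chemotactic receptor list had 4 of 13 genes higher and none lower, namely Ccr7, which guides lymphocytes to lymphatics and nodes (12.2 and 80.9 CPM, 2.03), S1pr1, and the integrin chains Itga4 (1.16) and Itgae (1.77). Klf2, a factor that controls S1pr1, was the 1 of 22 transcription factors past the limit (177 and 407 CPM, 1.16). The granzyme gene Gzma came from 1 WT cell and 2 Lyve1 KO cells and was not compared.

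Other lists gave fewer calls in γδ T cells, where 1.35% of all genes were higher and 1.26% lower. Of 10 cytokine genes Lif (-1.79) and Tnfsf11, the gene of RANKL (465.5 and 126 CPM, -1.80), were lower. For Lif, the WT cells with at least 4 IL-17 markers held 45 UMIs, 37 of them in 1 cell, so that its call rested on that cell. Of 12 DNA replication genes Mcm3 (1.56), Mcm4 (1.0002) and Mcm6 (1.03) were higher, with a median of 0.25. Within the cells with at least 4 IL-17 markers 3 were higher and none lower, with a median of 0.71. Within the others 2 were higher and 5 lower, and all 75 WT UMIs of Top2a there came from 1 of 4 cells. Of 9 genes of the list of activating receptors and their signalling, which also holds the inhibitory receptor gene Tigit, Sh2d1a (1.88), Tigit (2.52) and Lck (1.05) were higher. Of 9 interferon-stimulated genes Ifi27l2a was higher (1.45) and Isg15 lower (-1.17), with a median of 0.03. The difference from ILC2 was not tested. Of 19 immediate early genes Jun (-1.21) and the heat shock genes Hspa1a (-3.06) and Hspa1b (-1.37) were lower, and of 20 cytokine receptor genes none passed the limit.

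At the extremes of the γδ T cells, Bag3, a co-chaperone, had 2 UMIs in WT and 105 in 17 Lyve1 KO cells, 58 of them in 1 cell, a 27.2-fold ratio (7.33 to 227). Tigit, an inhibitory receptor, had 1 and 56 UMIs, a 29.0-fold ratio (4.99 to 1164), and Sox4 4 and 66 UMIs (2.13). Cdk8, a kinase of the Mediator complex, had 399 and 4670 UMIs (2.58), of which 2352 lay in 1 Lyve1 KO cell, and without it the log2 ratio was 1.63. A further Lyve1 KO cell held 843, and the median per cell was 10 UMIs in WT and 10.5 in Lyve1 KO. The lowest were Hspa1a (808 and 179 UMIs, an 8.73-fold ratio, 7.41 to 10.3), the mitochondrial gene mt-Nd3 (-2.02), Gclc (-1.95), Cwc25 (-1.90) and Tnfsf11. Of the 808 WT UMIs of Hspa1a, 288 and 246 sat in 1 cell each. It was found in 15 of 35 and 16 of 58 cells, and the median per cell was 0 in both libraries. mt-Nd3 was lower in every class examined, with log2 ratios of -1.66 in other CD3+ T cells, -1.82 in B cells, -1.58 in cells with Csf1r, -1.35 in NK cells and -1.97 in ILC2, so that it was not particular to γδ T cells.

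Markers of other cell types were summed for each group, and some of them came from single cells. The 13 macrophage and monocyte markers summed to 8 and 2 UMIs in NK cells, 14 and 33 in ILC2 and 9 and 27 in γδ T cells, and in Lyve1 KO ILC2 the most abundant of them was Lyve1 at 67.5 CPM. Mast cell and basophil markers summed to 1572 UMIs in WT ILC2 and 98 in Lyve1 KO, because 1 WT cell that met the ILC2 rule held 626 UMIs of Cma1, 332 of Tpsb2 and 226 of Mcpt4, all genes of mast cell proteases. The 9 B cell markers summed to 113 and 31 UMIs in ILC2, led by Cd74, and the stromal and endothelial markers to 32 and 574 in γδ T cells, where 1 Lyve1 KO cell brought Col3a1 to 179 CPM. Thymocyte markers summed to 128 and 545 UMIs in γδ T cells, led by Satb1, and Foxp3 and Cd8b1 were found in 4 and 5 Lyve1 KO γδ T cells and in no WT one. ILC2 also held γδ chain transcripts, with Trdv4 in 15 of 25 and 14 of 18 cells (93.3 and 139.6 CPM) and Tcrg-C1 at 199 and 212 CPM, while Trdc had 0 and 1 UMIs. The part of these transcripts in the differences between genotypes was not tested, beyond leaving out the cell with mast cell genes and the cell that met both rules.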

How the data were processed

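The deposited UMI counts were made by the authors with Cell Ranger 8.0.1 on mm10 (GRCm38), per the submitters' processing notes (the study's reporting summary names another version), from GEM-X 5′ libraries of pooled hearts, and the tables hold 32285 genes. Groups came from the genotype labels. The limits of 1000 genes and 10% mitochondrial UMIs kept 3380 barcodes in WT (median 16060 UMIs) and 2769 in Lyve1 KO (median 17251 UMIs), where the study's stated limits of 500 genes, 250 UMIs and 30% mitochondrial UMIs leave 4285 and 3464. The libraries shared 9 barcodes, 3 among those kept and 0 among the members. The automatic doublet call of scrublet marked 1 and 4 barcodes and had not worked. Leaving out the highest doublet scores (98 and 73 barcodes, 5 and 3 of the members) served as an alternative.

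UMIs were summed per group and library with Python 3.11.15, numpy 2.4.6, scipy 1.17.1, pandas 2.3.3 and scanpy 1.11.5, and figures drawn with matplotlib 3.10.9. Sums carry exact Poisson, shares Clopper-Pearson and differences of shares Newcombe 95% intervals, and ratios conditional binomial ones. None of these covers the spread between hearts. The thinned depth of 6600 UMIs is the 10th percentile over the members, rounded down to a multiple of 100, and cells with fewer UMIs were left out of thinned values. The script for sums and calls was tested on simulated data.

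Genes were named by a rule: those of the membership rule, those of the gene lists, the 10 leading genes per group, the 5 highest and 5 lowest log2 ratios per group, and genes past the 2-fold limit in all 3 groups. The members and the lists were chosen with earlier results of these data known. Some genes of the lists are not reported here and were left out of list counts and medians. Positions, annotations and V-segment transcripts are from GENCODE vM21. Assignment of cells to hearts was not used here.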

Additional observations from a re-analysis of the deposited data

Results flagged for a closer look

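Several results pointed in opposite directions in different groups of cells, and none of these differences was tested. When barcodes were split by sex-linked transcripts, the share of NK cells differed by -0.324 percentage points (Lyve1 KO minus WT, -1.01 to 0.252, 4 and 1 cells) in female and by 0.0450 points (-0.386 to 0.561, 6 and 5 cells) in male barcodes, and that of ILC2 by -0.208 points (-1.12 to 0.676, 8 and 6 cells) and 0.129 points (-0.497 to 0.845, 14 and 12 cells). All 4 intervals held 0. The share of γδ T cells was higher in Lyve1 KO in both, by 0.786 points (-0.355 to 1.998) and 1.26 points (0.328 to 2.30).

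Genes past the 2-fold limit in opposite directions in 2 of the groups, as log2 ratios of Lyve1 KO over WT, numbered 4 between NK cells and ILC2, namely Plac8 (-2.18 in NK cells, 1.25 in ILC2), Hsph1 (-1.75 and 1.32), Top2a (-1.11 and 1.28) and Tubb5 (-1.83 and 1.11). Between NK cells and γδ T cells they were Gem (-2.44 and 1.59), Tnfrsf9 (-2.78 and 1.86), Klf2 (-2.11 and 1.16) and Slc16a10 (1.97 and -1.22). Between ILC2 and γδ T cells they were Myadm (-1.10 and 1.29) and Slc7a6os (2.59 and -1.49). The NK values rest on 13 and 7 cells. With CD3 counted as Cd3d+Cd3e, Gem (-1.73) and Tnfrsf9 (-1.87) stayed past the limit in NK cells, whereas Plac8 (-0.25), Hsph1 (-0.61), Tubb5 (0.69), Klf2 (-0.00029) and Slc16a10 (0.56) did not, and Top2a turned to 1.03. In ILC2 none of the 6 did, with Plac8 at 0.96, Hsph1 at 0.61, Top2a at -0.31, Tubb5 at -0.12, Myadm at 0.04 and Slc7a6os at 0.65.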

How the results depend on the processing

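No paired analysis was possible because each genotype had 1 library. The higher share of γδ T cells kept its sign under the other cell limits, doublet removal, raised or thinned thresholds, the count of CD3 and both sexes, between 0.647 and 1.26 percentage points. It was -0.0514 points (-4.92 to 4.41, 11.7% in both libraries) when the rule's lymphoid cells alone were the denominator. By that denominator NK cells differed by -2.95 points (-6.00 to -0.629) and ILC2 by -4.76 points (-8.69 to -1.43). With no filter on low counts the genes at least 2-fold apart numbered 3466 in NK cells, 871 in ILC2 and 547 in γδ T cells, and with a pseudocount of 50 CPM 65 in ILC2 and 34 in γδ T cells. Among 55 results of the rule genes, main markers and extremes, 3 turned direction without the cell with the most UMIs. They were Slc16a10 (-0.44) and Ccl4 (-3.49) in NK cells and Il4 in ILC2 (-0.33). Other list genes were not part of that set, and among them the calls of Dusp2 in NK cells and Lif in γδ T cells rested on 1 cell. With CD3 as Cd3d+Cd3e, chosen after seeing the data, directions turned for Hist1h1b (1.95), Gzma (0.15), Cd7 (-0.017) and Top2a (1.03) in NK cells and Il5 (-0.0050), Fos (0.01) and Top2a (-0.31) in ILC2. Of 40 genes of the rule, the main markers and the extremes past the 2-fold limit, 24 stayed past it in the same direction with that count of CD3 and 34 without the top cell, and from 38 to 40 under the other settings for all 3 groups. Without the cell that met both rules and the cell with mast cell genes, 28 of 29 in NK cells and ILC2 stayed, and the genes past the limit numbered 71 of 606 in NK cells and 152 in ILC2. Low depth limits NK cells most, where 3 UMIs equal 21.9 CPM in WT and 31.9 CPM in Lyve1 KO. The causes were not tested.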

Other observations

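Cytotoxic genes appeared in few γδ T cells. Gzma had 39 UMIs in 1 WT cell and 740 UMIs in 2 Lyve1 KO cells, and Gzmb 13 UMIs in 4 and 132 UMIs in 8 cells, while Ccl5 had 429 UMIs in 3 and 705 UMIs in 8 cells. The Ly49 receptor gene Klra7 had all of its 76 UMIs in 1 Lyve1 KO γδ T cell. In ILC2, Il22 and Il23r, genes of group 3 innate lymphoid cells, came from 1 cell per library, with 36 and 5 UMIs of Il22 and 9 and 36 UMIs of Il23r, and Il17a was not detected. In NK cells Cd27 had 7 UMIs in 5 of 13 WT cells and 19 UMIs in 6 of 7 Lyve1 KO cells, and S1pr5, a receptor of mature NK cells, 14 UMIs in 7 and 1 UMI in 1 cell. These genes did not reach the minimum for comparison.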
